A study of Mus musculus with 10 samples.

Results

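Retinoic acid genes were followed here in mouse limb buds with and without Dicer. The 9 genes were Aldh1a2, Cyp26b1, Rara, Rarb, Rarg, Crabp1, Crabp2, Dhrs3 and Stra6. They were chosen by name, as a group that makes, breaks down, carries or senses retinoic acid, and every probe set annotated to exactly 1 of these symbols was taken. This gave 10 of the 45101 probe sets of the array, 2 of them for Rarg and 1 for each other gene. Of these, 9 passed a filter on low signal that 22519 probe sets passed, and Rarb lay under it.

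RNA from embryonic limb buds was hybridised to Affymetrix arrays, 1 sample per array, in 5 wild type and 5 Dicer mutant samples, each group numbered 1 to 5. The embryos came from parents heterozygous for a Dicer floxed allele with the prxcre driver mated to homozygous Dicer floxed mice, so every embryo, wild type ones included, carried at least 1 floxed allele. Mutant embryos carried prxcre as well, a Cre driver active in limb mesenchyme but not in the ectoderm, muscle precursors, vessels or blood of the same bud, which keep Dicer. Heterozygous embryos were also identified, but no array is labelled as such. Embryonic age, strain, forelimb or hindlimb, and the number of embryos per sample were not given in the sources used here. Since nothing says that the samples were separate animals, the p-values reflect the spread between samples only, which may be technical.

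Retinoic acid is a small signalling molecule made from vitamin A. Stra6 brings vitamin A into cells, retinol dehydrogenases turn it into retinal, Dhrs3 turns retinal back, and Aldh1a2 carries out the last step to retinoic acid. The Crabp proteins bind it in the cytoplasm, the Cyp26 enzymes destroy it, and the receptors Rara, Rarb and Rarg switch target genes on or off with an Rxr partner. In the early limb, Aldh1a2 is known as the synthesis enzyme of the body wall and the proximal region, Cyp26b1 as the enzyme that keeps the distal mesenchyme low in retinoic acid, and Rarb and Cyp26a1 as genes that retinoic acid itself can switch on.

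Array medians lay between 145.9 and 152.8 signal units. Dicer1, the targeted gene, checked the labels. Its probe set 1427941_at read 372 to 706 in wild type arrays 1, 3, 4 and 5 and 205 to 226 in mutant arrays 1, 3, 4 and 5. But wild type 2 by its label read 233 and Dicer mutant 2 read 359.7. Its other probe set, 1460571_at, differed less, with 707 to 940 in those wild type and 506 to 555 in those mutant arrays. It showed the same reversal, 551 in wild type 2 and 774 in Dicer mutant 2. The groups were therefore compared in the 10 arrays as labelled and in the 8 arrays without the pair numbered 2. These comparisons share 8 arrays and are not independent. A fold change printed below with neither set named is that of the 8 arrays. In the 10 arrays as labelled 0 of 22519 tested probe sets were called. The first principal component (37.7% of the variance of tested probe sets) set arrays numbered 1 to 3 apart from those numbered 4 and 5, and the second (22.1%) set the groups apart, with each array numbered 2 on the side of the other group. Of 10 limb mesenchyme markers all 10 passed the filter, with summed signals of 11082 to 14053 in wild type and 11209 to 13815 in mutant arrays, none called different without a block.

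Aldh1a2 (probe set 1422789_at), the synthesis enzyme, had the largest difference of the 9 genes. Its signal in wild type arrays 1, 3, 4 and 5 was 853, 1132, 448 and 408, and in mutant arrays of the same numbers 446, 476, 248 and 195. The mutant array was the lower one in each of these 4 pairs, while the groups overlapped, because wild type arrays 4 and 5 lay at the level of mutant arrays 1 and 3. In the pair numbered 2 the order was the opposite, where wild type 2 by its label read 373 and Dicer mutant 2 read 1081.

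With the 10 arrays as labelled, the log2 fold change of Aldh1a2 (mutant minus wild type) was -0.51 (SE 0.45, n = 5 per group, limma adjusted p = 1.00, Benjamini-Hochberg). Without single arrays it ran from -0.87 (without Dicer mutant 2) to -0.25 (without Dicer mutant 5). Without the pair numbered 2 the geometric means were 648 in wild type and 318 in mutant arrays, a 2.04-fold difference (log2 fold change -1.03, SE 0.39, n = 4 per group). It did not pass the test (limma adjusted p = 0.294), although only 2 of 11601 tested genes had a larger fall in size. The array number moved with the signal: Aldh1a2 read 373 to 1132 (median 665) in the 6 arrays numbered 1 to 3 and 195 to 448 (median 328) in the 4 arrays numbered 4 and 5.

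With the array number as a block, so that each mutant array is set against the wild type array of its own number, Aldh1a2 fell by 1.03 on the log2 scale in the mutant (SE 0.080, limma adjusted p = 0.00275). The differences of the 4 pairs were -0.94, -1.25, -0.85 and -1.07, against 1.54 in the pair numbered 2. Among the 9 tested probe sets of the retinoic acid genes this was the 1 call with the block, where 5.41% of all tested probe sets were called (3.01% lower, 2.40% higher). Arrays numbered 1 and 3 alone gave -1.09 (SE 0.14, limma adjusted p = 0.0162), and arrays 4 and 5 alone gave -0.96 (SE 0.15, limma adjusted p = 0.340), where 0% of probe sets were called. The labels do not say that equal numbers mark littermates or a shared day.

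In bulk RNA, fewer cells of a type and less RNA per cell cannot be told apart. In the 8 arrays, 1 of 4 tested cartilage markers was called lower in the mutant, Col11a1 (log2 fold change -0.58, limma adjusted p = 0.0314). So was 1 of 2 tested nerve and Schwann cell markers, Gap43 (-0.34, limma adjusted p = 0.0466). Over all tested probe sets 1.68% were called, 0.750% lower. Col2a1 had 0.083, Sox10 -0.0095 and Tubb3, under the filter, 0.19. In the 10 arrays as labelled Col11a1 had -0.27 and Gap43 -0.19, and neither was called. The summed signal of 6 cartilage markers was 4948 to 6762 in wild type and 4120 to 5941 in mutant arrays, and that of 3 nerve markers 559.6 to 652 and 543 to 628. The 8 surface ectoderm, 5 tested muscle, 5 endothelial, 3 tested red cell and 4 tested macrophage markers included no call, and 3 of 4 tested macrophage markers had higher mutant means (median log2 fold change 0.29). No marker had a signal of 0 in any array. With the block, where 5.41% of tested probe sets were called (3.01% lower, 2.40% higher), Col11a1 and Gap43 were called again. Called higher in the mutant was 1 of 10 limb mesenchyme markers (Tbx4, a hindlimb factor, 0.58, limma adjusted p = 0.00705). So were 2 of 4 macrophage markers (Tyrobp, 0.49, and Ctss, 0.43, with limma adjusted p of 0.0164 and 0.0197). Called lower was 1 of 8 ectoderm markers (Krt14, -0.39, limma adjusted p = 0.0435), while 6 of the 8 had log2 fold changes above 0. Tbx4 read 137 to 205 in wild type and 208 to 320 in mutant arrays, and Tbx5, its forelimb counterpart, had a log2 fold change of -0.21 (limma adjusted p = 0.152 with the block). The part of these markers in the Aldh1a2 difference was not tested.

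**Figure D1:**
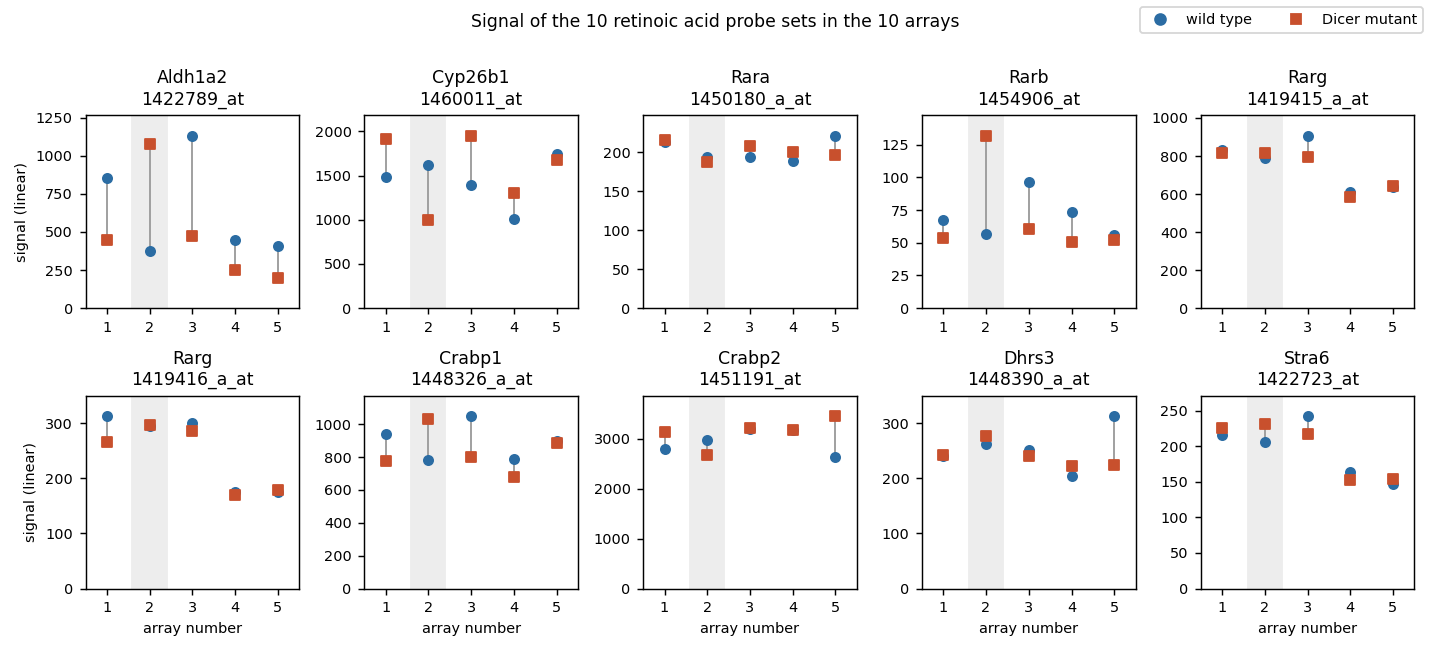
Linear signal of the 10 retinoic acid probe sets by array number; circles are wild type arrays, squares Dicer mutant arrays, a line joins arrays of 1 number, and the grey band marks the pair numbered 2. The mutant square of Aldh1a2 lies below the wild type circle for numbers 1, 3, 4 and 5 and above it for number 2.

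Cyp26b1 (1460011_at), which removes retinoic acid, had its values in the other direction. Its signal was 1484, 1398, 1012 and 1739 in wild type arrays 1, 3, 4 and 5 and 1907, 1950, 1304 and 1671 in the mutant arrays. Mutant arrays 1, 3 and 4 were above and mutant array 5 was slightly below the wild type array of their number, and the groups overlapped. The pair numbered 2 read 1614 in wild type and 998 in mutant, again the opposite order.

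The Cyp26b1 difference did not pass the test as labelled (log2 fold change 0.091, SE 0.20, limma adjusted p = 1.00), nor without the pair numbered 2 (0.29, SE 0.18, limma adjusted p = 0.609), nor with the block (SE 0.092, limma adjusted p = 0.129). Leaving out single arrays of the 8 moved it from 0.14 (without wild type 4) to 0.41 (without Dicer mutant 4). It passed in 2 smaller sets of arrays. In arrays 1 and 3 alone it rose by 0.42 (SE 0.071, limma adjusted p = 0.0309), where 3.61% of probe sets were called, 2.19% lower and 1.42% higher. With the block and number 5 left out it was 0.40 (limma adjusted p = 0.00542), a setting in which 3157 of 22519 probe sets were called. With limma array weights in place of the block, 11.6% of probe sets were called, Aldh1a2 among them (-1.73, limma adjusted p = 0.0104) and Cyp26b1 not.

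Of the other 7 genes none was called in either comparison, with or without the block. With the 10 arrays as labelled their log2 fold changes lay between -0.10 (Crabp1, SE 0.12) and 0.083 (Crabp2, SE 0.079). Over all 9 tested probe sets, 0 were called by limma in the 10 arrays (0 at an unadjusted p below 0.05), against 0% and 2.81% of all tested probe sets. In the 8 arrays 0 were called and 1, that of Aldh1a2, had an unadjusted p below 0.05, against 1.68% called (0.750% lower, 0.928% higher) and 12.7%. The groups overlapped for all 10 probe sets in both comparisons; 0.400% of tested probe sets did not overlap in the 10 arrays and 9.09% in the 8. The median log2 fold change of the 8 tested genes was -0.049 in the 8 arrays, beside -0.012 over all tested genes.

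**Figure D2:**
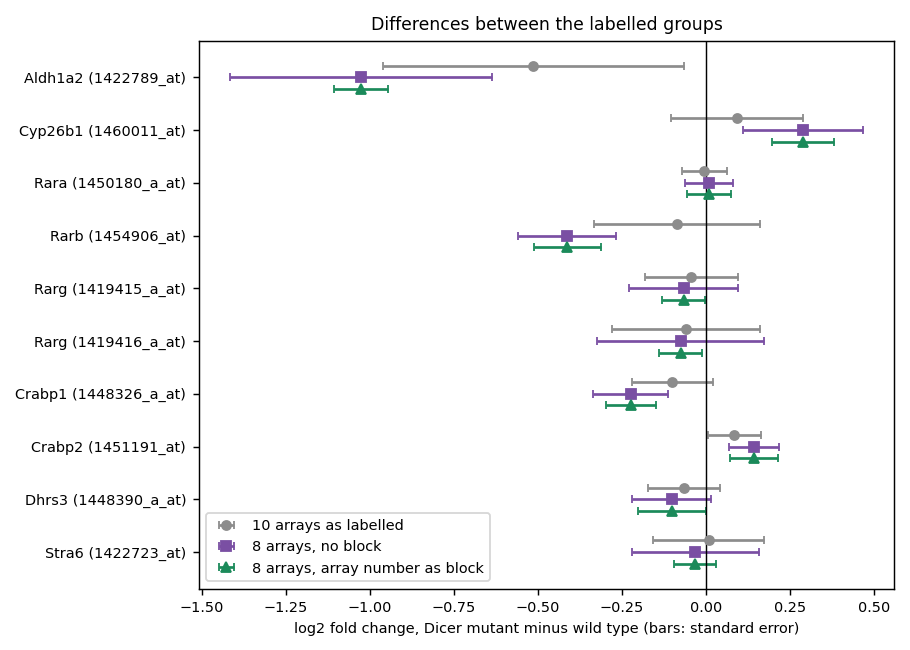
Log2 fold change (Dicer mutant minus wild type) of each probe set with its standard error, for the 10 arrays as labelled, the 8 arrays without the pair numbered 2, and the same 8 arrays with the array number as a block. Aldh1a2 is at -0.51 in the 10 arrays and at -1.03 in the 8. In the 8 arrays the block leaves the estimates in place and narrows every error bar, some only slightly.

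Among the receptors, Rarb (1454906_at) showed the clearest pattern, at a signal low enough to fall under the filter. It read 67.0, 96.1, 73.7 and 55.9 in wild type arrays 1, 3, 4 and 5 and 53.6, 60.5, 50.3 and 51.7 in mutant arrays. Each mutant array was below the wild type array of its number, least so for number 5, and the highest mutant array lay above the lowest wild type array. In the pair numbered 2 the array labelled Dicer mutant read 132, the highest of all 10, against 56.6 in the array labelled wild type.

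In a fit with no filter, Rarb had a log2 fold change of -0.086 in the 10 arrays (SE 0.25, limma adjusted p = 1.00) and -0.41 in the 8 (SE 0.15, limma adjusted p = 0.355), in which 0.655% of 45037 probe sets were called. With the block its limma adjusted p was 0.0856, and 0.0143 with number 5 also left out. The mean signal of Rarb was at the 14.9th percentile of all probe sets, and whether it was above background cannot be read from these values.

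Rara and Rarg did not differ detectably between the labelled groups. Rara (1450180_a_at) read 188 to 221 over the wild type and 187 to 215 over the mutant arrays, a narrow range in both groups, with a log2 fold change of 0.0081 in the 8 arrays (SE 0.071, limma adjusted p = 0.988). For Rarg, probe set 1419415_a_at had a log2 fold change of -0.067 (SE 0.16) and 1419416_a_at of -0.076 (SE 0.25), with limma adjusted p of 0.948 and 0.965. The 2 Rarg probe sets had the same sign. With limma array weights they moved to -0.33 and -0.51, still short of the threshold (limma adjusted p = 0.130 and 0.115).

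Rarg instead separated the arrays by number. Probe set 1419415_a_at read 833, 791 and 906 in wild type arrays 1 to 3 and 816, 815 and 795 in mutant arrays 1 to 3, but 609 and 636 in wild type arrays 4 and 5 and 584 and 641 in mutant arrays 4 and 5. The second probe set read 266 to 312 in the 6 arrays numbered 1 to 3 and 170 to 179 in the other 4. Both sets of numbers lay apart without overlap, in wild type and mutant arrays alike.

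Stra6 (1422723_at), the vitamin A uptake receptor, did the same. It read 206 to 242 in arrays numbered 1 to 3 and 147 to 163 in those numbered 4 and 5. Of all tested probe sets, 20.0% lay apart between these sets of arrays and 11.7% lay apart and lower in numbers 4 and 5, so Rarg and Stra6 belong to a large class. No label says what the numbers stand for, so differences of stage, limb or day between them cannot be told apart. Between the labelled groups, Stra6 had a log2 fold change of -0.032 in the 8 arrays (SE 0.19, limma adjusted p = 0.985), and -0.37 with array weights (limma adjusted p = 0.129).

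Of the binding proteins, Crabp1 (1448326_a_at) read 939, 1049, 789 and 899.8 in wild type arrays 1, 3, 4 and 5 and 778, 799, 682 and 888 in mutant arrays. All 4 mutant arrays were below the wild type array of their number, by little for number 5, and the groups overlapped. The pair numbered 2 again had the opposite order, 784 in wild type and 1029.5 in mutant. The log2 fold change in the 8 arrays was -0.22 (SE 0.11, limma adjusted p = 0.468; 0.146 with the block, 0.0240 with the block and number 5 left out).

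Crabp2 (1451191_at), the other binding protein, lay at the 98.5th percentile of mean signal among all probe sets. It read 2785, 3187, 3171 and 2625 in wild type arrays 1, 3, 4 and 5 and 3129, 3212, 3167 and 3452 in mutant arrays. The mutant arrays were higher for numbers 1 and 5 and level with wild type for numbers 3 and 4. The log2 fold change was 0.14 (SE 0.075, limma adjusted p = 0.497).

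Dhrs3 (1448390_a_at), which turns retinal back to retinol, read 240.3, 252, 205 and 313 in wild type and 242, 241, 223 and 224 in mutant arrays 1, 3, 4 and 5. Only number 5 showed a large gap, and the wild type array was the high one. Its log2 fold change was -0.10 (SE 0.12, limma adjusted p = 0.847).

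Counted over pairs, 2 of the 9 tested probe sets were lower in the mutant in 4 of 4 pairs, those of Aldh1a2 and Crabp1, and 0 were higher in 4 of 4. The shares over all tested probe sets were 16.8% and 13.4%, so these counts are near the background. Of the 3780 probe sets lower in 4 of 4 pairs, 73.4% were higher in the array labelled Dicer mutant 2 than in wild type 2. Aldh1a2, Rarb and Crabp1 shared that turn, and Cyp26b1 turned the other way.

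The signals of Aldh1a2 and Rarb were ordered alike over the 10 arrays. Pearson's r of their log2 signals was 0.84 (permutation p = 0.0010, two-sided, adjusted p = 0.018 over 36 relations among the 9 genes) and Spearman's rho 0.89 (permutation p = 0.0012, adjusted p = 0.043). Without the 2 arrays farthest from the median of Aldh1a2, r was 0.70 (n = 8 arrays). Within the 6 arrays numbered 1 to 3 it was 0.86, while numbers 4 and 5 hold too few arrays. Those 6 arrays form a low and a high group in both genes. Rarb read 53.6 to 60.5 in wild type 2 and mutant arrays 1 and 3. It read 67.0 to 132 in wild type arrays 1 and 3 and Dicer mutant 2. The r of 0.86 mixes these groups and is not read. The highest Rarb signals stood in the 2 arrays with the highest Aldh1a2, those labelled Dicer mutant 2 and wild type 3. Genotype, array number and the reversed pair are shared by both genes, so the points are not independent of them. The permutations shuffled all 10 arrays freely and ignored this structure. Their p-values therefore cannot tell a link between the 2 genes from a shared response to these factors.

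For Rarg and Stra6 the arrays fall into separate clusters by number. Their relation over all 10 arrays counts among the 36 that the p-values are adjusted over, but it mixes the clusters and is not read here; within numbers 1 to 3, r was 0.79 over 6 arrays. Aldh1a2 and Cyp26b1 had an r of -0.35 over the 10 arrays. Aldh1a2 and Crabp1 had an r of 0.73 over all 10 (adjusted permutation p = 0.083) and 0.39 without the 2 arrays farthest from the median. Within numbers 1 to 3 their r was 0.99 over 6 arrays, with no test run. Aldh1a2 there formed a low group, 373 to 476 in wild type 2 and mutant arrays 1 and 3. The high group was 853 to 1132 in wild type arrays 1 and 3 and Dicer mutant 2. This r mixes the low and the high group and is not read either.

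**Figure D3:**
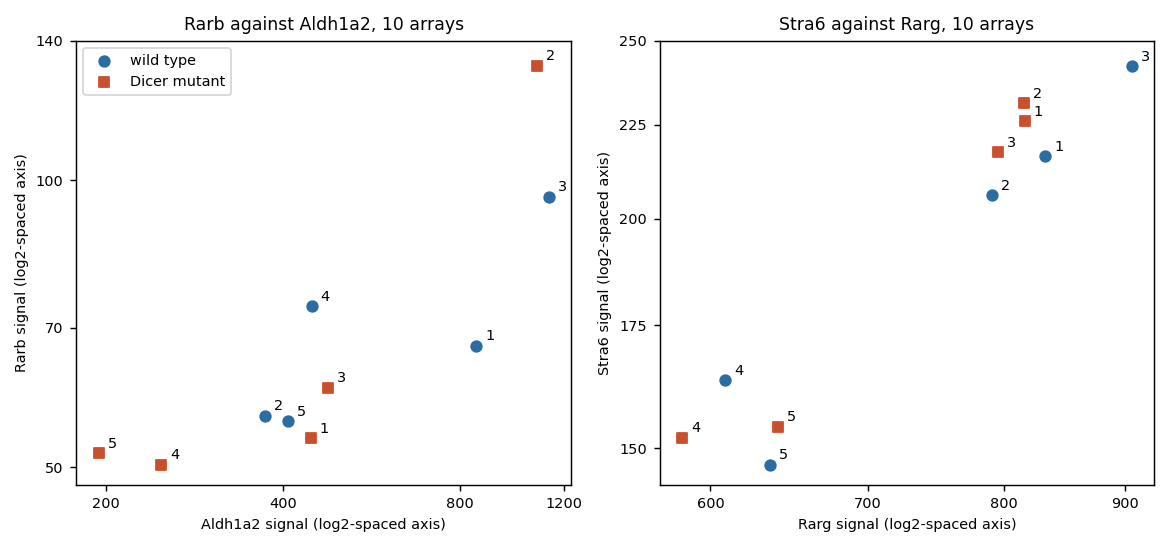
Signals of Rarb against Aldh1a2 (left) and of Stra6 against Rarg probe set 1419415_a_at (right), 1 point per array, both axes log2-spaced and array numbers beside the points. On the left, Dicer mutant 2 and wild type 3 stand at the top right; on the right, arrays numbered 4 and 5 form a group below those numbered 1 to 3.

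Among 11601 genes, the closest in pattern over the 10 arrays were sought by Pearson's r, as a description. The values are high by selection, being the highest of many over 10 arrays, and no test was run on them. For Aldh1a2 they were Rdh14 (r = 0.983), a retinol dehydrogenase, and Sirt2 (0.980), a deacetylase. For Cyp26b1 they were Kdm1a (0.990), a histone demethylase, and Arid3b (0.970), and for Rarb they were Zfp61 (0.965) and Gdf5 (0.961), a growth factor of forming joints. Those of the genes split by array number were Dctn2 (0.990) and Ptpa (0.985) for Rarg and Bmp1 (0.991) and Snord104 (0.991) for Stra6. For Rarg and Stra6 these r also mix the clusters by number. The closest were S100a6 (0.934) and Spata24 (0.929) for Crabp1, Sik2 (0.954) and Kif20b (0.931) for Crabp2, Mapk8ip2 (0.981) and Hhat (0.926) for Dhrs3, and Fgf3 (0.971) and A830010M20Rik (0.940) for Rara.

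Of 33 other genes of retinoid metabolism and response, 27 were on the array and 18 passed the filter. None was called in the 10 or the 8 arrays, 9 lay below 0 and 9 above, and the median log2 fold change in the 8 arrays was 0.0014 (range -0.32 to 0.23). With the block 1 of the 18 was called, Rdh14, which was lower in the mutant. The block called 5.41% of all tested probe sets (3.01% lower), so this count is near the background.

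Rdh14, which can convert retinol to retinal, had the lowest log2 fold change of the tested genes in these lists. It read 404, 438, 359 and 319 in wild type arrays 1, 3, 4 and 5 and 335, 328, 291 and 263 in mutant arrays. The mutant array was lower in every one of these pairs, as for 16.8% of all tested probe sets. In the pair numbered 2 it was higher, 429 against 329. The log2 fold change was -0.32 (SE 0.12, limma adjusted p = 0.291 without and 0.0338 with the block). Aldh1a1, a related synthesis enzyme under the filter, had a log2 fold change of 0.19 (limma adjusted p = 0.588 with no filter).

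Cyp26a1, the other breakdown enzyme measured, lay under the filter as well. Its probe set read 169, 154, 147 and 184 in wild type arrays 1, 3, 4 and 5 and 146, 126, 116 and 123 in mutant arrays. The groups of 8 arrays did not overlap, by a narrow gap (lowest wild type 146.6, highest mutant 145.5). Of tested probe sets, 9.09% did not overlap in the 8 arrays. Cyp26a1 differed from Aldh1a2 and Rarb in the pair numbered 2, where the array labelled mutant was again lower, 113 against 124. The log2 fold change was -0.36 (SE 0.095, limma adjusted p = 0.172 with no filter, 0.0541 with the block).

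Among receptors and coregulators, Ncoa2, a coactivator, was higher in the mutant in 4 of 4 pairs, as were 13.4% of all tested probe sets. Its log2 fold change was 0.23 in the 8 arrays (SE 0.082, limma adjusted p = 0.247) and 0.10 in the 10. In the pair numbered 2 it read 964 in wild type and 720 in mutant. Rxrb, a partner receptor, had -0.11 (limma adjusted p = 0.821). Of genes known to respond to retinoic acid, Meis2, a proximal limb factor, had 0.12 (limma adjusted p = 0.895) and Cdx1, under the filter, 0.067 (limma adjusted p = 0.944 with no filter). None of these passed a test.

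The promoters of these genes were searched for the element that Rar and Rxr bind. RefSeq windows on GRCm38.p6, from 250 bases before to 50 after each start site, were read on both strands for the core hexamer in its forms AGGTCA or AGTTCA or GGGTCA or GGTTCA. A DR5 is a pair of such hexamers in the same direction with 5 bases between them, and a DR2 has 2 between. Rarb and Cyp26a1 are shown because each holds a DR5, and Aldh1a2 because it was the 1 call with the block among the 9 genes; each run is the 250 bases before the start, 5′ to 3′ on the gene's strand, with the DR5 in capitals. Aldh1a2 lies at chr9:71215539-71215788 (plus strand), Rarb at chr14:16575477-16575726 (minus strand) and Cyp26a1 at chr19:37697558-37697807 (plus strand).
Aldh1a2: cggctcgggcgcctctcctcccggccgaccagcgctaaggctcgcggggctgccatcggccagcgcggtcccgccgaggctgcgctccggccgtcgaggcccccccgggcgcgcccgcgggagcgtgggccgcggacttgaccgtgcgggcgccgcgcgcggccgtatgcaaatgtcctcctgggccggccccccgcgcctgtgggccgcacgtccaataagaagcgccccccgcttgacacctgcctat
Rarb: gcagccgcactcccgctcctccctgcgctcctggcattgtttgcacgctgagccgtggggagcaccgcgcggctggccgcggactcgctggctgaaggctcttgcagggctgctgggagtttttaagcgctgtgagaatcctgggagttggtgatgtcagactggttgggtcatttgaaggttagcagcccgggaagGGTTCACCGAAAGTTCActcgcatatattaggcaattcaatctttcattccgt
Cyp26a1: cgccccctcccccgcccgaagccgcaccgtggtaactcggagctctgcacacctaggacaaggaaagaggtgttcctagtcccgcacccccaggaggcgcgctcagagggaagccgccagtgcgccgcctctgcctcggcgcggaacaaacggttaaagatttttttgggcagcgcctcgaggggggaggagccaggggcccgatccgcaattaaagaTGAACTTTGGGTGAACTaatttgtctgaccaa

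The Rarb DR5 lies 53 to 37 bases before the start at chr14:16575513-16575529 on the gene's strand, and that of Cyp26a1 lies 32 to 16 bases before it at chr19:37697776-37697792 on the opposite strand. A DR5 was found in 32 of 32851 windows (0.0974%), a DR2 in 88 (0.268%) and a single hexamer in 14358 (43.7%). Of the 8 retinoic acid genes in the table, 1 held a DR5, 0 held a DR2 and 4 held a hexamer (Rara, Rarb, Rarg and Stra6). Counted over all 27025 genes in the table, some with several windows, the shares were 0.115% for a DR5, 0.311% for a DR2 and 46.9% for a hexamer. Of 22 other retinoid genes in the table, 1 held a DR5, Cyp26a1. The windows cover a short stretch, and a match is a match of letters only.

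**Figure D4:**
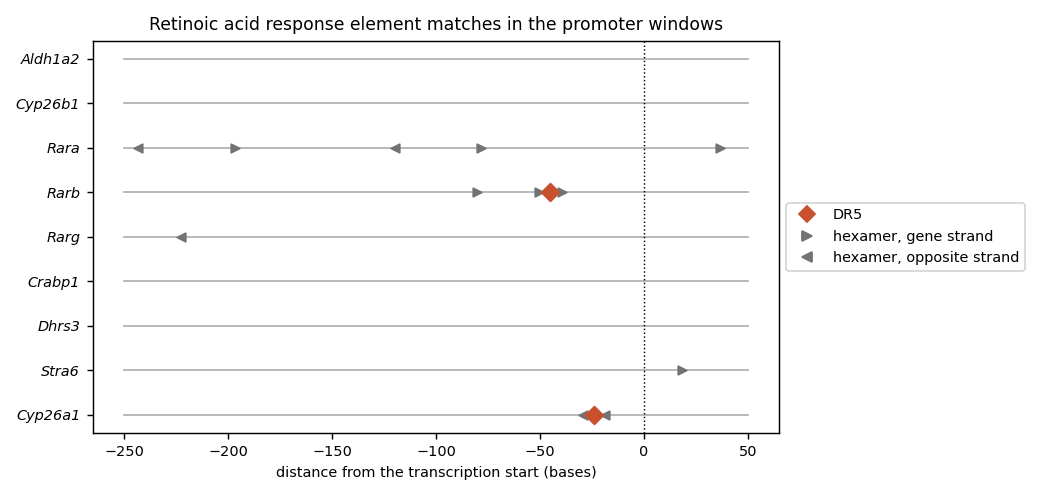
Map of hexamers and DR5 elements in the RefSeq windows of the retinoic acid genes and Cyp26a1, as distance in bases from the start site; all windows of a gene are drawn on 1 line. A DR5 appears for Rarb and Cyp26a1.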

How the data were processed

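The deposited table holds linear Affymetrix intensity values (signals) for 10 arrays, made by the authors with GCOS 1.3, per the submitters' processing notes. How probes were summarized and scaled, and detection calls, are not stated in the labels used. The 2% trimmed means of the arrays spread by 4.76%, so no normalization was added. After a floor of 1, signals were turned into log2 values. Apart from 64 control probe sets, those whose mean log2 reached the overall median (a signal of 151) were tested. A compressed scale at low signal would understate changes of dim genes such as Rarb, but whether the scale is compressed was not tested.

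Differences came from limma 3.58.1 under R 4.3.3 (lmFit, eBayes with an intensity trend), adjusted by Benjamini-Hochberg over 22519 probe sets at 0.05. Correlations used 100000 permutations. The fit with no block was checked on simulated data with known answers. It recovered 53% of log2 changes of 0.5 and 91% of those of 1 with 10 arrays. With 8 arrays it recovered 48% and 89%. Simulated arrays were drawn independently, with no effect of array number and no reversed pair, so the check does not cover those features. Gene names come from the platform annotation, which gave 34945 probe sets 1 symbol, 932 several and 9160 none. The number of arrays limits the precision.

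The genes, the lists and the 8-array comparison were chosen with earlier results of these data known. All probe sets of the 9 genes are named, and of other retinoid lists the called members or, with none called, the 2 with the smallest p in the 8 arrays. For each of the 9 genes, the 2 most correlated genes are named. In the 8 arrays, deviations of same-number arrays had an r of 0.55, 0.55, 0.71 and 0.32 for numbers 1, 3, 4 and 5. The highest r with another number was 0.54, 0.54, 0.52 and 0.52, and in the 10 arrays number 2 had -0.18. Same-number arrays were thus clearly more alike only for number 4, about level for numbers 1 and 3, and less alike for number 5. These values do not establish that equal numbers mark pairs, so the main fits had no block and the block was an alternative. Alternatives were other normalizations, offsets, filters, variance models, array weights, the block, single arrays left out, and the sets of numbers; the block combined with other settings was added after seeing the data.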

Additional observations from a re-analysis of the deposited data

Results flagged for a closer look

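The Rarb signal of the array labelled Dicer mutant 2, 132, stood apart from the other 4 mutant arrays, with a gap to the nearest of them, on the log2 scale, of 0.808 of the group's range, above Dixon's limit of 0.71 for 5 samples. This is 1 of 40 groups checked, and chance alone marks about 1 in 20.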

How the results depend on the processing

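In the 8 arrays Aldh1a2 stayed lower in the mutant in all 27 alternatives (log2 fold change -1.73 to -0.76) and passed in 10, and in the 10 arrays it stayed lower in all 22 (-1.37 with array weights to -0.22 in numbers 1, 2 and 3) and passed in 0. Leaving out 1 array of the 8 in turn gave -1.25 to -0.76 (limma adjusted p 0.150 to 0.577), with 93 (without wild type 3) to 745 (without wild type 5) probe sets called against 378; leaving out any other array of the 8 gave 97 to 142.

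Array weights called 2612 probe sets (11.6%), 1 of them Aldh1a2 at -1.73. The replicate block called 1219 and 1, Aldh1a2 at -1.03; it called 63, 59, 68 and 3157 with number 1, 3, 4 or 5 left out, Aldh1a2 in each (-1.06, -0.95, -1.08 and -1.01; limma adjusted p 0.0272, 0.0318, 0.0289 and 0.00183), and 3 of the retinoic acid probe sets without number 5. The block with quantile normalization, centred medians or an offset of 64 called 1194, 1118 and 1228 probe sets, 1 of them Aldh1a2 (-1.02, -1.02 and -0.89). Numbers 1 and 3 alone called 812 and 2, and numbers 4 and 5 alone called 0. The block also brought the call of Rdh14 and of 4 cell type markers, and changed no other call among the tested retinoid genes. The cause of these shifts was not tested.

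Values near 0 changed sign. In the 10 arrays Rara was 0.011 (quantile), 0.0056 (medians centred) and 0.018 (numbers 1, 2 and 3), Stra6 -0.30 (array weights) and -0.018 (numbers 4 and 5), and Rarb 0.077 and Dhrs3 0.012 (numbers 1, 2 and 3). In the 8 arrays Rara was -0.0060 (weights), -0.022 and -0.019 (block without number 3 or 4) and -0.040 (numbers 4 and 5), Stra6 0.0095 (block without 3) and Dhrs3 0.025 (block without 5); Rarg 1419416_a_at was 0.0011 (numbers 4 and 5) in both. Leaving out 1 array of the 10 gave Cyp26b1 -0.032 to 0.24, Dhrs3 -0.14 to 0.013, Rara -0.029 to 0.028, Rarb -0.34 to 0.036, Rarg -0.12 to 0.033 and -0.18 to 0.054, and Stra6 -0.088 to 0.094. Leaving out 1 of the 8 gave Cyp26b1 0.14 to 0.41, Rarb -0.53 to -0.27, Crabp1 -0.29 to -0.16, Crabp2 0.090 to 0.18, Dhrs3 -0.20 to 0.0063, Rara -0.029 to 0.047, Rarg -0.16 to 0.034 and -0.21 to 0.069, and Stra6 -0.15 to 0.089.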
